A study of Arabidopsis thaliana with 12 samples.

Results

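Wild-type Arabidopsis stems were compared at 2 heights, the base and the first internode, with 3 Affymetrix ATH1 arrays at each. The comparison takes the arrays whose titles name the base of Col and the stem of Col, 6 of the 12 arrays of the study. The other 6 hold the same positions of the mutant line wox4-1 (WOX4 is a homeobox gene active in the cambium) and enter here through the shared estimate of the spread and through tests of the change in that genotype. All plants were of the Columbia ecotype, spent 3 weeks in short days (8 h of light) and then moved to long days (16 h of light). They were cut at an age of 49 to 58 days with stems of 15 to 20 cm and an elongated lowest internode of at least 3.5 cm. A fragment of 0.5 cm was taken at the base, and the internode fragment lay between 1.5 and 2.0 cm over the highest rosette leaf. The internode fragment thus came from the lowest elongated internode, a short way over the base, and not from an internode higher up. Each array holds RNA of 13 to 17 pooled stems and is called a biological replicate in the labels, so an array averages over plants and over all tissues of the fragment.

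The Arabidopsis inflorescence stem elongates from its top, so that the base is its oldest part. There a cambium, a cylinder of dividing cells between xylem and phloem, adds secondary xylem and phloem and thickens the stem. Younger parts of the stem hold mainly primary tissue with a green, photosynthetic cortex. Stems also lay down anthocyanins, pigments made from flavonoid precursors, commonly near the rosette. In whole stem fragments, a smaller number of cells of a type cannot be told apart from less RNA per cell.

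The labelled tissue could be checked only in part, because the annotation used here gives names to few known genes. Of 40 marker genes of stem cell types and other organs, 4 had a named probe set, and no marker of phloem, xylem, fibre, epidermis, flower or seed was among them. MOL1, a receptor kinase gene of the cambium, had a mean of log2 7.59 at the base and 6.97 in the internode. RCA, the Rubisco activase gene of green cells, stood at 12.33 and 13.11. The root gene EXPA7 had 3.57 and 3.65 and the root gene PYK10 4.08 and 3.21, at the dim end of the values. The 6 measured genes of a flower and pollen list reached at most log2 4.62 on any of the 6 arrays.

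The arrays had medians between log2 5.64 and 5.70, and the actin control was brighter at its 3′ than at its 5′ end by log2 1.44 to 1.51 at the base and 1.33 to 1.51 in the internode. In a principal component analysis of the 6 arrays, the leading component, with 62.81% of the variance, had scores of 24.45 to 32.36 at the base and -32.83 to -23.74 in the internode. The next, with 19.15%, set replicate 2 of both positions apart, at 19.85 and 22.62 against -16.73 to -7.99 for the other 4 arrays. Which genes weighed most in this component was not examined. A group of dehydration genes was high on the replicate 2 arrays. AT3G17520 read log2 9.87 on base array 2 against 4.90 and 3.69 on base arrays 1 and 3, and 9.23 on internode array 2 against 3.56 and 3.56. LEA4-5, for a late embryogenesis abundant protein that accumulates when cells dry, read 9.12 against 4.28 and 3.47 at the base and 8.30 against 3.58 and 4.17 in the internode. LTI30, a dehydrin gene, read 11.61 against 7.81 and 7.02, and 11.46 against 8.34 and 8.21.

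Averaged over both positions, replicate 2 lay more than log2 1 over the mean of replicates 1 and 3 in 112 probe sets and as far under it in 1. The 10 named genes with the largest such deviation, all upward by log2 3.69 to 5.62, were AT3G17520, AT5G66780, LEA4-5, AT4G33550, EXLB1, AT2G21820, AT3G02480, SAG29, AT1G16850 and LTI30. Base array 1 carried part of the signal for some of them. AT4G33550 read log2 7.93 there against 3.83 on base array 3, and SAG29, a sugar transporter gene induced by drying and senescence, read 6.64 against 4.85. Since 1 pool per position stands apart, the deviation has no replicate and was not tested. The results below are for all arrays, and calls of named genes and counts of lists that were lost without both replicate 2 arrays are given beside them.

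**Figure D1:**
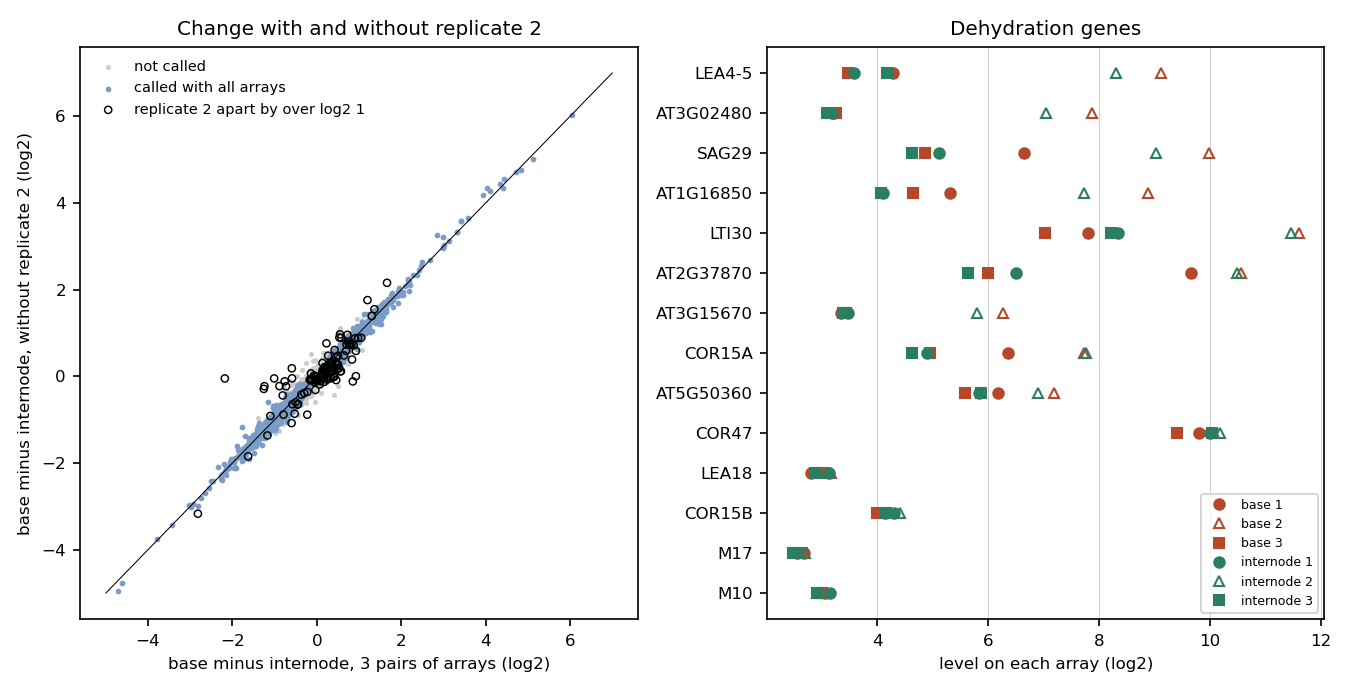
Left, log2 change from internode to base of each of 22746 probe sets with 3 pairs of arrays (x axis) and with replicates 1 and 3 alone (y axis), with called probe sets in blue and black circles for those where replicate 2 stood more than log2 1 from the other replicates. Right, log2 level of the 14 measured dehydration genes on each of the 6 arrays, with replicate 2 as open triangles. Large changes lie on the diagonal, and for LEA4-5 the replicate 2 arrays lie at 9.12 and 8.30 against 3.47 to 4.28 on the other 4.

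At the base, genes of anthocyanin synthesis and of the response to low oxygen were higher and genes of photosynthesis were lower. Of 13356 genes with 1 probe set each, 17.8% were called between the positions (9.42% higher and 8.43% lower at the base). The shares were 6 of 10 flavonoid and anthocyanin genes and 9 of 17 low-oxygen genes in the higher direction, and 14 of 21 nuclear photosynthesis genes in the lower one. In a linear model fitted to all 12 arrays, 4485 of 22746 probe sets (19.7%) passed an adjusted p of 0.05 between the positions, and these are referred to as called. Of them 2183 (9.6% of all) rose and 2302 (10.1%) fell, where a rise means a higher level at the base and a fall a lower one. Most changes were small, with a median size of log2 0.48 among called probe sets, and 64.15% of them were under 1.5-fold. At least 2-fold changes were found in 493 probe sets, 180 higher and 313 lower. At 8-fold or more the balance was the other way, with 17 higher and 5 lower. The split between directions depends on the scaling, since 48.7% of calls were higher with the deposited values and 54.7% after median centring. The median change over all probe sets was log2 0.01.

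Without both replicate 2 arrays 2435 probe sets were called (10.7%), 1039 higher (4.57%) and 1396 lower (6.14%). Of these, 2381 were called with all arrays too, in the same direction, and 54 were not. All 2104 calls that were lost kept their sign. Of the 493 changes of at least 2-fold, 474 remained called. The change of position moved by more than log2 0.5 in 25 probe sets and by more than log2 1 in 2. Leaving out replicate 1 or replicate 3 of both positions gave 2890 and 2320 calls from the same number of arrays. With 1 probe set per gene, 9.4% of genes were called without replicate 2, 4.37% higher and 5.02% lower. Of the 112 probe sets that were high in replicate 2, 4 were called between the positions with all arrays, against 19.7% of all probe sets. They were picked for a gap between replicates, which widens the spread that the fit tests against. The low count therefore does not show whether their level differs between the positions.

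**Figure D2:**
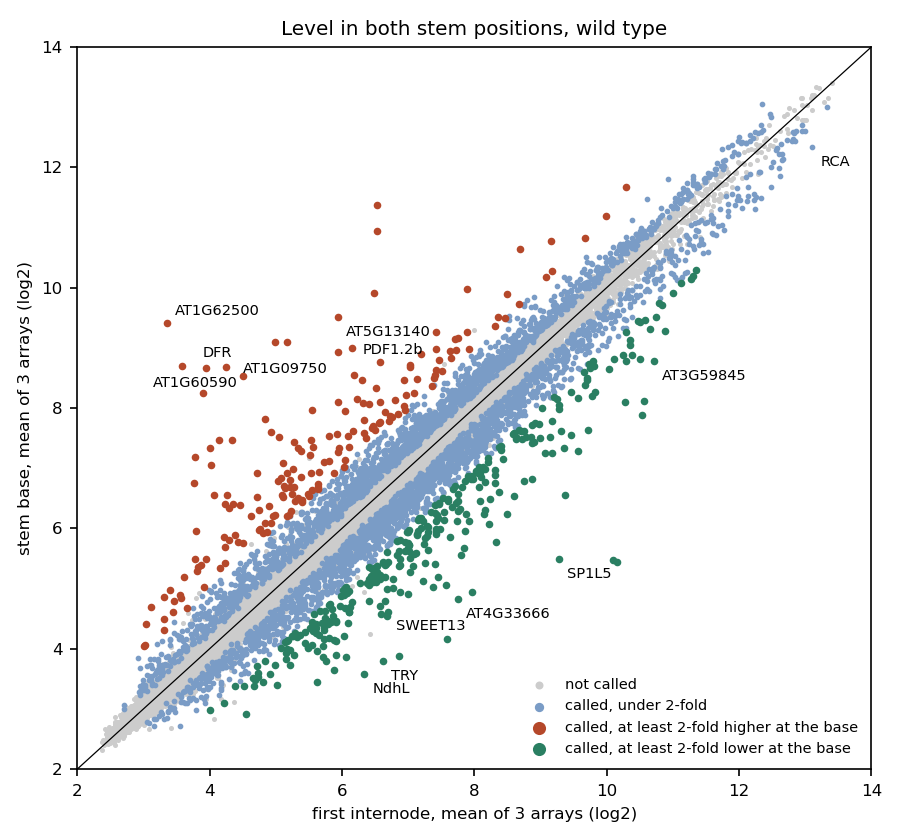
Mean log2 level in the first internode (x axis) against that at the stem base (y axis) for 22746 probe sets, each mean over 3 wild-type arrays, with called changes under 2-fold in blue and larger ones in red (higher at the base) or green (lower). The diagonal marks equal levels. AT1G62500 lies farthest over it among named genes, at 3.35 in the internode and 9.41 at the base, and SP1L5 farthest under it, at 9.27 and 5.49.

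The largest rise of a named gene was that of AT1G62500, which read log2 9.23, 9.44 and 9.55 at the base and 3.32, 3.37 and 3.38 in the internode. The fitted rise was log2 6.05 (SE 0.11, adjusted p in limma 1.3e-12), and the fold is given as at least 64.5. Its internode values lie at the low end of the arrays, where a level is hardly told from background. Folds with a group mean under log2 4 are therefore lower bounds, taken against log2 3.397 (the 20th percentile of all group means) where the mean was under it. AT1G60590 read 8.75, 8.61 and 8.75 against 3.75, 3.30 and 3.70, a rise of log2 5.12 (SE 0.12) or at least 34.7-fold. AT1G10640 rose by log2 4.34 (SE 0.15) or at least 20.3-fold. AT1G09750, with an internode mean of 4.25, rose 21.6-fold (log2 4.44, SE 0.17), and AT5G13140 rose 11.9-fold (log2 3.58, SE 0.15) from 5.94 to 9.51.

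These were 5 of the 20 largest rises, chosen among called genes whose arrays of both positions do not overlap and which kept the call without replicate 2. Of the 20, 16 are named by their locus alone in the tables used here, so their products are not described unless a gene list gives them. AT2G28780 rose by at least log2 3.41 and AT3G61490 by at least 3.00, and AT5G45950 by at least 2.16. AT5G19730, AT1G48100, AT1G27030 and AT3G54400 rose by log2 2.05 to 2.29. The other 8 belong to gene groups described below. A call without replicate 2 was a condition of the choice. The 20 genes were also called in each of the 13 further settings that tested them. Among genes bright in both positions (means of at least log2 8), the largest rises were in AT1G14890 (log2 1.61, SE 0.09), from 9.16 to 10.77, and DRT100, named for tolerance of DNA damage (log2 1.39, SE 0.11), from 8.50 to 9.89.

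Some probe sets with no gene name here changed as much. The unnamed probe set 248684_at read log2 11.15, 11.49 and 11.46 at the base and 6.59, 6.48 and 6.51 in the internode, a 28.7-fold rise. Probe set 256825_at rose 21.3-fold. In the other direction 259161_at fell 26.3-fold and 246596_at 24.7-fold, more than any named gene. Of the 493 changes of at least 2-fold, 235 had a single gene name.

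**Figure D3:**
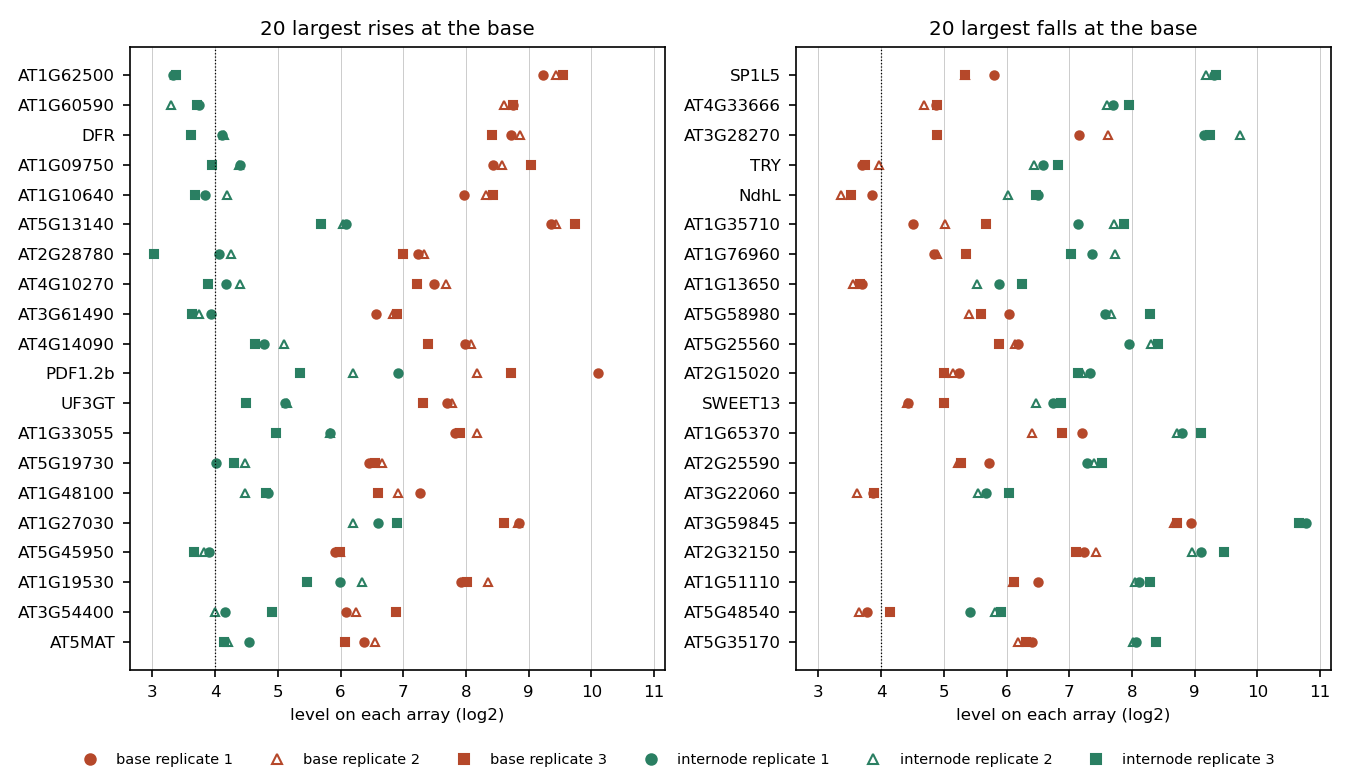
Log2 level on each wild-type array of the 20 named genes with the largest rises (left) and the 20 with the largest falls (right) from internode to base. Base arrays are red and internode arrays green, replicate 2 is an open triangle, and the dotted line marks log2 4, under which levels are read as bounds. Genes were chosen on the condition that the 3 base arrays lie to one side of the 3 internode arrays. AT3G28270 has the widest base group, from 4.89 to 7.61.

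Genes of anthocyanin synthesis rose at the base. Of 10 measured genes of flavonoid and anthocyanin synthesis (32 listed), 6 rose and none fell, with a median change of log2 0.64 against 0.02 over all genes. The 3 base arrays lay over the 3 internode arrays in the same number of list members, 6, against 20.1% of all genes. DFR encodes dihydroflavonol reductase, which commits flavonoids to anthocyanins. It read log2 8.71, 8.87 and 8.42 at the base and 4.10, 4.14 and 3.61 in the internode, a rise of log2 4.72 (SE 0.17, adjusted p in limma 1.76e-09) or at least 26.3-fold. AT4G14090, on the list as an anthocyanin glucosyltransferase, read 7.98, 8.08 and 7.39 against 4.78, 5.10 and 4.64, a 7.89-fold rise.

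UF3GT, which adds a further sugar to anthocyanins, read 7.69, 7.77 and 7.32 against 5.12, 5.14 and 4.499, a 6.38-fold rise. AT5MAT attaches malonate to the sugar of anthocyanins and read 6.38, 6.55 and 6.08 against 4.53, 4.21 and 4.14, a 4.11-fold rise. For these genes the groups of arrays lie far apart. The remaining 2 calls were smaller, UGT78D2 with log2 0.67 (SE 0.10) and UGT78D1 with 0.55 (SE 0.09), whose enzymes put the first sugars on flavonols and anthocyanins. CHIL, a partner of chalcone isomerase in the early pathway, changed by 0.60 (SE 0.21, adjusted p 0.06) and was not called, but was with the replicate numbers as a block (0.0498), which made 7 calls on the list. Also uncalled were AT1G06000 (0.31), the condensed tannin gene BAN (0.14) and UGT78D3 (0.13). Without replicate 2 the same 6 genes were called, DFR with 4.71 and AT4G14090 with 2.98.

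Genes of the core response to low oxygen also rose at the base. This response is the set of transcripts that plant cells of all types raise when oxygen runs short, and it includes enzymes of fermentation. Of 17 measured genes on the list (39 listed), 9 rose and none fell, with a median of log2 0.56, against 9.42% called higher over all genes. AT4G10270 read log2 7.49, 7.68 and 7.22 at the base and 4.17, 4.39 and 3.88 in the internode, a 9.94-fold rise (log2 SE 0.19, adjusted p 1.33e-07). AT1G33055 read 7.82, 8.18 and 7.90 against 5.83, 5.84 and 4.98, a 5.36-fold rise. AT1G19530 read 7.92, 8.35 and 8.02 against 5.996, 6.34 and 5.47, a 4.47-fold rise. In each of the 3 genes every base array lies over every internode array, and internode array 3 is the lowest.

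AT3G27220 rose 2.99-fold (log2 1.58, SE 0.10), and AT4G27450 read 10.24, 10.22 and 10.38 against 9.28, 9.29 and 8.93. The other 4 called genes, AT3G10040, AT3G03270, AT1G74940 and AT5G42200, changed by log2 1.50, 0.75, 0.62 and 0.56. PDC2, which encodes pyruvate decarboxylase, the entry enzyme of ethanol fermentation, changed by 0.44 with an adjusted p of 0.0571 and was not called, but was with the replicate block (0.0283), which made 10 calls on the list. The other 7 uncalled members lay between -0.01 and 0.28, and 4 of them had means under log2 4 in both positions. Without replicate 2 the list again had 9 higher and none lower (4.37% of all genes were then called higher), with AT4G10270 at 3.33 and AT1G33055 at 2.46. The replicate 2 deviation of the 17 genes ranged from log2 -0.05 to 0.49.

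**Figure D4:**
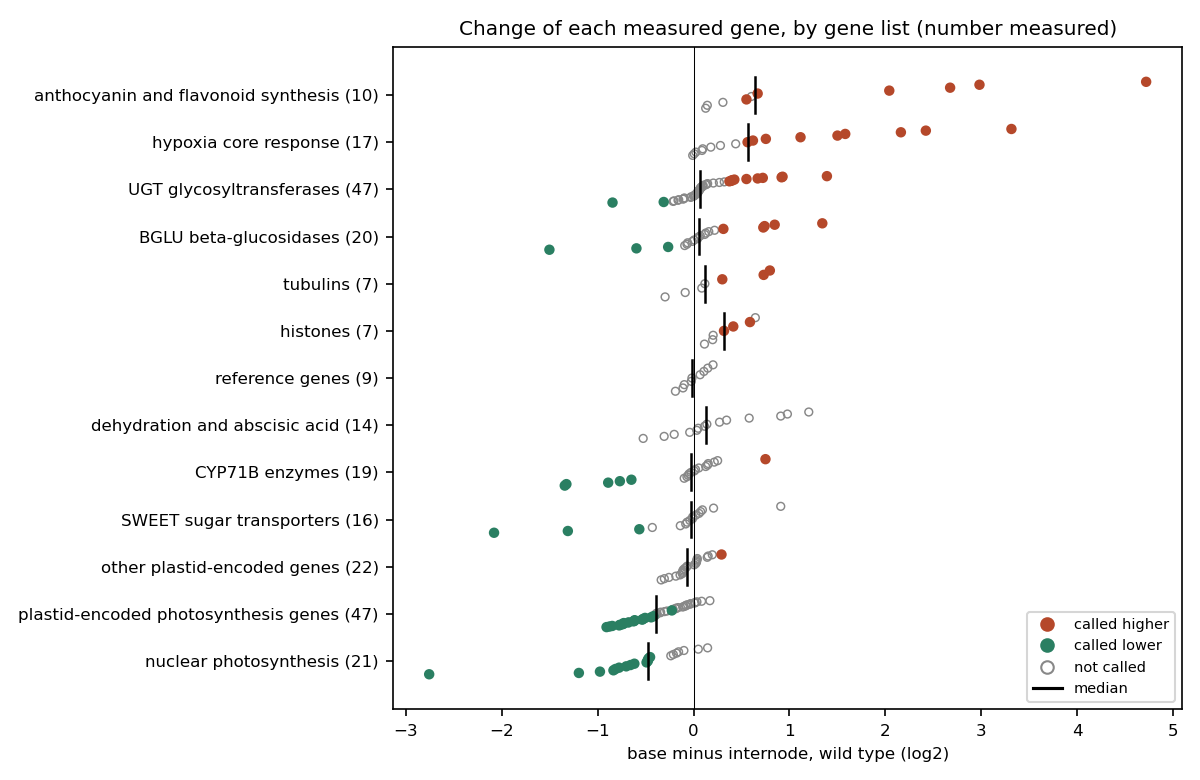
Log2 change from first internode to base in wild type (x axis) of every measured gene of 13 gene lists, with filled points for called genes, open points for the rest and a black bar at the median of each list. Anthocyanin and low-oxygen genes lie at or to the right of 0 up to 4.72 and 3.31, and photosynthesis genes mainly to its left, down to -2.76 for NdhL.

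Of 47 measured UGT glycosyltransferases, which transfer sugars to hormones and phenolic compounds, 10 rose and 2 fell (median log2 0.06), against 9.42% and 8.43% of all genes. The list goes by gene symbol, so it shares UGT78D1, UGT78D2 and the uncalled UGT78D3 with the anthocyanin and flavonoid list above. It also shares UGT74B1 with the glucosinolate genes below, and the lists are not separate counts. Without replicate 2 the counts were 7 and 1, and with a mean of at least log2 5 they were 10 and 0. UGT71C1 read 6.64, 7.10 and 7.01 at the base and 5.76, 5.52 and 5.30 in the internode, a 2.62-fold rise (log2 SE 0.14). UGT74D1, which glucosylates auxins, rose by 0.93 (SE 0.11) and UGT76C2, which glucosylates cytokinins, by 0.92 (SE 0.15). UGT84A3, an enzyme of hydroxycinnamic acids, fell by 0.84 (SE 0.15). WES1, also called GH3.5, which joins auxin to amino acids, read 6.81, 6.73 and 6.84 against 5.32, 4.93 and 4.88 and rose 3.37-fold (log2 SE 0.10). The auxin response gene IAA29 fell by 0.78 (SE 0.17), and its call was lost without replicate 3 (adjusted p 0.0883). These were the calls among 16 auxin genes measured, and with the replicate block 3 rose and 1 fell.

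Of 20 beta-glucosidases named BGLU, 5 rose and 3 fell, against 9.42% and 8.43% of all genes. Without replicate 2 it was 4 and 2, against 4.37% and 5.02%. BGLU45 acts on the glucosides of monolignols, the precursors of lignin, and read 8.83, 8.56 and 8.97 at the base against 10.28, 10.37 and 10.22 in the internode, a 2.83-fold fall (log2 SE 0.11, adjusted p 1.17e-06). BGLU46, its neighbour in the family with a like substrate, rose by 0.31 (SE 0.09), a call lost without replicate 2 (adjusted p 0.17). BGLU15 rose 2.54-fold (log2 SE 0.10) and BGLU47 by 0.74 (SE 0.10). Of the defensin-like LCR and PDF peptides, 1 of 13 rose and 2 fell, against the same shares of all genes. Without replicate 2 it was 1 and 1. The probe set of PDF1.2b, a defensin gene induced by jasmonate, read 10.11, 8.18 and 8.72 against 6.92, 6.20 and 5.36. This was a 7.17-fold rise with a wide spread (log2 SE 0.55, adjusted p 0.00238). How far its probes bind transcripts of other defensin genes was not tested, so the rise may not be that of PDF1.2b alone. LCR68 read 7.34, 7.54 and 7.67 against 8.78, 9.27 and 9.39, a 3.08-fold fall. LCR69 fell by 1.04, a call lost without replicate 2 (change -0.68, adjusted p 0.126).

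PYK10 encodes the main beta-glucosidase of endoplasmic reticulum bodies, best known from roots, and JAL34 a jacalin lectin of the same complex. PYK10, at 3.21 and 4.08 near the dim end, rose by log2 0.87 (SE 0.12) or at least 1.61-fold, and JAL34 rose by 0.76 (SE 0.11). They were the 2 calls among 5 measured genes of that complex, and in both the base arrays lie over the internode arrays. Over all genes 9.42% were called higher and 8.43% lower. On a list of root genes 2 of 4 rose, PYK10 and AT3G10080 (0.73, SE 0.12), while EXPA7 changed by -0.08 and AT3G54580 by -0.03. Their part in other results was not tested. Of 5 measured glucosinolate genes, 4 rose by log2 0.33 to 0.42, and none of these calls remained without replicate 2. Of 19 CYP71B cytochrome P450 enzymes, 5 fell and 1 rose (median -0.03), against 8.43% and 9.42% of all genes. CYP71B24 fell by 1.33 (SE 0.15), from 5.79 to 4.46, CYP71B26 by 0.89 (SE 0.10) and CYP71B35 by 0.77 (SE 0.09), and CYP71B29 rose by 0.75 (SE 0.17), a call lost without replicate 1 and without replicate 3. CYP71B23 changed by -1.34 (SE 0.33), with a call that was lost without replicate 2 (adjusted p 0.0825). Genes of this family are alike in sequence, and how far their probes bind one another's transcripts was not tested.

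Genes for the photosystems, the Calvin cycle and electron transport fell at the base. Of 21 measured nuclear photosynthesis genes, 14 fell and none rose, with a median of log2 -0.48 against 0.02 over all genes. NdhL is a subunit of the chloroplast NADH dehydrogenase-like complex, which cycles electrons around photosystem I. It read log2 3.86, 3.36 and 3.51 at the base and 6.496, 6.03 and 6.48 in the internode, a fall by log2 2.76 (SE 0.18, adjusted p 3.26e-07) or at least 6.75-fold. SBPASE encodes sedoheptulose-bisphosphatase of the Calvin cycle and read 8.69, 8.35 and 8.47 against 9.67, 9.58 and 9.84, a 2.29-fold fall. PRK, the phosphoribulokinase of the same cycle, fell by 0.98 (SE 0.11). PSAE-1 of photosystem I read 11.50, 11.45 and 11.53 against 12.33, 12.24 and 12.41, a fall by 0.83 (SE 0.09).

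RCA, the activase of Rubisco, read 12.42, 12.28 and 12.29 against 13.09, 13.08 and 13.15, a fall by 0.78 (SE 0.10). The other 9 called members fell by log2 0.45 to 0.81. They were PSAN of photosystem I, PSBW and PSBY of photosystem II, the antenna genes LHCB4.1, LHCB4.2 and LHCB4.3, ATPC1 of the chloroplast ATP synthase, NdhS, and CRR42, needed for assembly of the NADH dehydrogenase-like complex. The call of CRR42 had an adjusted p of 0.0493 and was lost without replicate 2 (0.125), and the other 13 remained. Not called were CRR21, CRR22, CRR28 and CRR41, which are needed for the same complex, and the chlorophyll synthesis genes CHLI2, CHLM and PORB, with changes between -0.24 and 0.15. RCA was the only measured marker of leaf mesophyll among 4.

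Genes of photosynthesis encoded in the chloroplast itself also fell. Of 47 measured plastid-encoded photosynthesis genes, 18 fell and none rose (median log2 -0.39), while of 22 other plastid-encoded genes 1 rose and none fell (median -0.07). Over all genes 8.43% were called lower and 9.42% higher. psbK of photosystem II read 10.21, 10.11 and 10.19 at the base and 10.92, 10.92 and 11.29 in the internode, a fall by 0.88 (SE 0.11, adjusted p 8.36e-05). ndhJ read 6.21, 6.49 and 6.59 against 7.33, 7.06 and 7.43, a fall by 0.85 (SE 0.14). psbH changed by -0.91 (SE 0.23, adjusted p 0.0131) and was not called without replicate 2 (0.0887). The number of falling plastid photosynthesis genes depended on the arrays, with 13 without replicate 2, 7 without replicate 1, 10 without replicate 3 and 11 without internode replicate 3. With wild-type arrays alone it was 24. Of the 47 changes 42 were negative, and the groups of arrays did not overlap in 32 genes, all lower at the base, against 16.3% over all genes. The 1 rise among the other plastid genes was that of the ribosomal protein gene rps15 (0.29, SE 0.08), lost without replicate 2 (adjusted p 0.143).

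SP1L5 had the largest fall of a named gene. It belongs to the SPIRAL1 family, small proteins that bind cortical microtubules and steer cell elongation. It read log2 5.80, 5.34 and 5.33 at the base and 9.30, 9.19 and 9.33 in the internode, a 13.8-fold fall (log2 SE 0.13, adjusted p 8.96e-10). A pair of relatives rose. SP1L2 read 9.46, 9.48 and 9.44 against 8.54, 8.59 and 8.45 and rose 1.91-fold (log2 SE 0.11), and SP1L4 rose by 0.51 (SE 0.09). SP1L3 and SPR1, the family's founder, changed by 0.08 and -0.03 and were not called. Of 7 tubulin genes 3 rose and none fell, against 9.42% of all genes called higher and 8.43% lower. TUB5 rose by 0.80 (SE 0.09) and TUB1 by 0.73 (SE 0.08), while TUB7 changed by 0.30 with a call lost without replicate 2 (adjusted p 0.289). TRM proteins recruit a complex that orders cortical microtubules. Of 15 measured, 3 rose and 1 fell, against 9.42% and 8.43% of all genes. Without replicate 2 the calls of TRM31 (0.40, adjusted p then 0.198) and TRM21 (-0.37, 0.175) were lost, which left 2 rises and no fall. Of the rises, TRM28 went up 2.57-fold (log2 SE 0.11) and TRM22 by log2 0.91 (SE 0.17).

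TRY encodes TRIPTYCHON, a small MYB protein that represses trichome fate. It read log2 3.69, 3.96 and 3.74 at the base and 6.58, 6.44 and 6.83 in the internode, a fall by log2 2.82 (SE 0.20) or at least 7.05-fold. Of the 7 measured genes for epidermis, trichomes and stomata, BLT, which acts in trichome branching, was the other call, with a change of -0.46 that was not called without replicate 2 (adjusted p 0.18). Over all genes 8.43% were called lower. The remaining 5, among them SPCH, MUTE and FMA of the stomatal lineage, changed by -0.11 to -0.03. Among them SPCH, MUTE and STOMAGEN had means under log2 4 in both positions.

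In the SWEET family of sugar transporters 3 of 16 measured members fell, against 8.43% of all genes, and none was called higher. With the replicate block 4 were called lower and 1 higher, SAG29, whose replicate 2 levels are given above. These proteins let sucrose or hexoses pass membranes, and SWEET11 is known for releasing sucrose toward the phloem. SWEET13 read log2 4.44, 4.42 and 4.996 at the base and 6.74, 6.47 and 6.87 in the internode, a 4.23-fold fall (log2 SE 0.18, adjusted p 4.91e-06). SWEET11 read 5.15, 5.33 and 4.95 against 6.02, 6.11 and 7.23, a 2.48-fold fall. SWEET2 of the vacuole fell by 0.57 (SE 0.12). SWEET13 and SWEET11 are close relatives, and binding of each other's transcripts by their probes was not tested. SFP1, of the sugar-porter family, fell by 1.00 (SE 0.10) and AT3G21670, the nitrate transporter family gene NPF6.4, by 1.01 (SE 0.13), both among the 10 largest falls of genes bright in both positions.

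The other large falls were in genes named mainly by locus. AT4G33666 read log2 4.87, 4.69 and 4.90 at the base and 7.69, 7.61 and 7.96 in the internode, a 7.64-fold fall (log2 SE 0.12). AT3G28270 read 7.15, 7.61 and 4.89 against 9.15, 9.73 and 9.24, a 7.05-fold fall with a wide spread at the base (log2 SE 0.49). In this gene base array 3 stands more than log2 2 below the other base arrays. AT1G35710, AT1G76960, AT5G58980, AT5G25560 and AT2G15020 fell as well, with changes of log2 -2.512 to -2.096, and AT1G13650 fell by at least log2 2.24. AT3G59845, the largest fall among genes bright in both positions, read 8.94, 8.67 and 8.72 against 10.78, 10.69 and 10.66, a 3.82-fold fall (log2 SE 0.09). RING1, a ubiquitin ligase gene of the pathogen response, fell 2.46-fold (log2 SE 0.16), and AT5G64120, the peroxidase gene PRX71, 3.62-fold (log2 SE 0.37). The subtilase gene SBT3.12 fell 3.19-fold (log2 SE 0.29). The 20 largest falls were chosen by the same condition on replicate 2, and were also called in each of the 13 further settings that tested them.

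Among expansins, TBL proteins and XTH enzymes of the cell wall, most genes were not called. The list of the pectin lyase-like family matched no gene by name. Wall genes named here by locus alone may therefore be missing from these lists, and nothing is said of wall families as a whole. Expansins loosen primary walls, and of 18 measured 2 rose and 1 fell, against 9.42% and 8.43% of all genes. Without replicate 2 the call of EXPA20 (0.47) was lost (adjusted p 0.0878), and with the replicate block 3 rose and 2 fell. EXPA15 read log2 10.58, 10.39 and 10.80 at the base and 11.48, 11.55 and 11.54 in the internode and fell 1.91-fold (log2 SE 0.12), while EXPA16 rose by 0.87 (SE 0.17). Of 22 TBL proteins, a family that acetylates wall polysaccharides, 4 rose and 2 fell, against 9.42% and 8.43% of all genes. Without replicate 2 it was 3 and 1, against 4.37% and 5.02%. TBL39 rose by 0.93 (SE 0.16), TBL36 by 0.56 (SE 0.10) and TBL37 by 0.55 (SE 0.10), and TBL38 fell by 0.85 (SE 0.11). GH9B13, for an endoglucanase, rose 1.99-fold (log2 SE 0.17), and CSLC04, a cellulose synthase-like gene for the xyloglucan backbone, fell by 0.60 (SE 0.11). None of 9 XTH xyloglucan enzymes was called with all arrays, and 1 was called higher with the replicate block. On the list for cellulose and xylan of secondary walls only 3 of 26 genes were measured, of which 1 was called lower and none higher. Over all genes 8.43% were called lower and 9.42% higher. The call was that of GUT2, an enzyme of xylan synthesis, which changed by -0.39 (SE 0.11), and it was lost without replicate 2 (adjusted p 0.0773). IRX15-L and IRX15 changed by -0.26 and -0.15 and were not called. The list for lignin and monolignol synthesis had 4 of 23 genes measured. The monolignol gene HCT changed by -0.22 and was not called. So few genes do not show how secondary wall synthesis changed as a whole.

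Regulators could be followed in part only, since the lists of MYB and NAC factors matched no gene by name. Of 7 bHLH factors 3 were called higher and none lower, and of 7 WRKY factors 2 lower and none higher. Over all genes 9.42% were called higher and 8.43% lower. Without replicate 2 it was 2 bHLH factors higher and 1 WRKY factor lower, against 4.37% and 5.02%. PTL, a trihelix factor that restrains growth between floral organs, read log2 7.23, 7.11 and 7.34 at the base and 5.90, 5.398 and 5.26 in the internode, a 3.26-fold rise (log2 SE 0.14). SHI, of a family of leaf and style growth regulators, rose by 0.76 (SE 0.17), a call lost without replicate 3 (adjusted p 0.0675). On the cambium list 2 of 5 were called higher, against 9.42% of all genes. MOL1, known to restrain cambium activity, read 7.55, 7.52 and 7.69 against 7.09, 6.93 and 6.88 and rose 1.54-fold (log2 SE 0.11, adjusted p 0.0016). CLE41, for a peptide that keeps cambium cells dividing, changed by 0.27 (SE 0.09, adjusted p 0.0486) and was called neither without replicate 2 (0.219) nor with the replicate block (0.0534). PHV, AT1G29160 and CLE44 were not called, with -0.06, 0.12 and -0.19.

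Of 14 bZIP factors, 3 rose, with bZIP42 at 0.87 (SE 0.15), and bZIP44 fell by 0.79 (SE 0.12). For this and the next lists, 9.42% of all genes were called higher and 8.43% lower. Among 11 genes of the cell cycle and replication, the kinase gene cdc2cAt fell by 0.68 (SE 0.10). The Aurora kinase genes AUR1 and AUR2 changed by 0.38 and 0.48 with calls that were lost without replicate 2 (adjusted p 0.122 and 0.22). Of 7 histone genes 3 rose, HTB2 by 0.59 (SE 0.09), HTB11 by 0.41 and HTB1 by 0.32, and the call of HTB2 alone remained without replicate 2.

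Several lists had no called member. None of the 9 measured reference genes used to normalise quantitative PCR was called, with changes from log2 -0.19 to 0.20. The same held for 11 RALFL peptides, 15 TET tetraspanins, 7 CML calmodulin-like proteins, 4 NGA factors, 6 flower and pollen genes, 3 seed genes and 5 genes of touch and early stress. With the replicate block 1 tetraspanin and 1 calmodulin-like gene were called lower and 1 seed gene higher. Of 14 measured dehydration genes (51 listed) none was called with all arrays. For these the spread between arrays holds the gap of replicate 2. AT1G16850 read log2 5.30, 8.89 and 4.64 at the base and 4.10, 7.73 and 4.07 in the internode, a change of 0.98 (SE 0.99). Without replicate 2 it rose by 0.89 (adjusted p 0.011), and with the replicate numbers as a block AT1G16850 and SAG29 were called higher (adjusted p for SAG29 0.00444). LTI30 changed by -0.52 with all arrays and fell without replicate 2 by 0.86 (adjusted p 0.0304).

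Whether these changes were particular to wild type was tested as the difference of the position change between wild type and wox4-1. It was called for 1 of 22746 probe sets (0.0044%), the unnamed 250891_at, which changed by log2 0.74 in wild type and by 2.81 in wox4-1 (difference -2.07, adjusted p 0.00912), while 1827 had an unadjusted p under 0.05. The named genes with the smallest p were AT1G60590, AT1G62770 and AT5G45670, each with an adjusted p of 0.07. AT1G60590 rose by 5.12 in wild type and by 3.96 in wox4-1, and the difference was 1.16 (SE 0.17). AT1G62770 changed by 0.27 in wild type and by 1.50 in wox4-1. Of the 493 wild-type changes of at least 2-fold, 475 (96.35%) were called in wox4-1 in the same direction and none in the opposite one, in a genotype where 24.5% of probe sets were called, 11.4% higher and 13.0% lower.

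The 40 genes with the largest wild-type changes were all called in wox4-1 as well, and their groups of arrays did not overlap there. DFR rose by log2 5.11 in wox4-1 and SP1L5 fell by 3.56. Of the gene lists, 8 of 17 low-oxygen genes rose in wox4-1 (11.4% of all genes were called higher), and 6 of 10 anthocyanin and flavonoid genes rose. In the same genotype 13 of 21 nuclear and 17 of 47 plastid photosynthesis genes fell (22.6% of all genes were called and 11.2% lower). The replicate 2 arrays of wox4-1 did not stand apart in the dehydration list, whose mean was log2 4.86 and 4.72 on them against 4.76 to 4.92 on the other 4. A p that misses the threshold does not show that the genotypes changed alike.

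**Figure D5:**
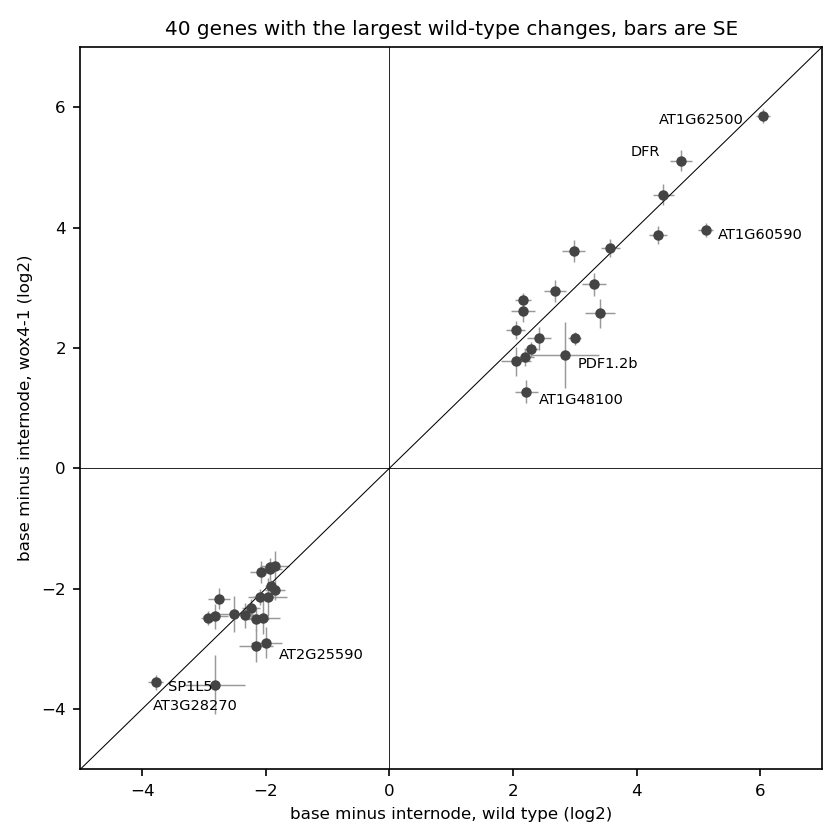
Log2 change from first internode to base in wild type (x axis) and in wox4-1 (y axis) of the 20 named genes with the largest rises and the 20 with the largest falls in wild type, with bars of 1 SE. The line marks equal change in both genotypes. All points lie in the quadrants of equal direction, and AT1G60590, at 5.12 and 3.96, lies under the line.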

How the data were processed

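Gene expression was measured on Affymetrix ATH1 arrays with biotin-labelled aRNA. The authors deposited a log2 value for each probe set, and per the submitters' processing notes the authors used RMA (background correction, quantile normalization and median polish); its version is not given in the sources used here. They were used as deposited. Of 22810 probe sets, 64 control sets were set aside and 22746 tested without a filter on low values. The supplied probe table gives 13513 probe sets 1 gene, 503 several and 8730 (38.38%) none. Where a gene had several probe sets, the one with the highest mean over all arrays stood for it (13356 genes), and 1535 genes carry a symbol other than their locus. The number of arrays limits the precision.

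All 12 arrays entered a linear model with a mean for every group, in limma 3.58.1 and R 4.3.3 (lmFit, eBayes without trend), with Benjamini-Hochberg adjustment over the 22746 probe sets and calls at an adjusted p under 0.05. SE are moderated. The fit was tested on simulated data. A permutation of 3 against 3 arrays cannot give an exact p under 0.1 and was not used. Equal replicate numbers deviated together in wild type (correlations over probe sets of 0.29, 0.59 and 0.31 for replicates 1, 2 and 3). Base 1 with internode 3 gave 0.11 and base 3 with internode 1 gave 0.17, and equal numbers in wox4-1 gave 0.14, 0.24 and -0.05. Deviations were taken from means of 3 arrays, so a signal shared by the replicate 2 arrays alone also moves replicates 1 and 3 together. Whether the numbers pair the arrays is thus not settled, and a fit with the replicate as a block was run as an alternative. Other settings were wild-type arrays alone, each array or replicate pair left out, median centring, a mean of at least log2 5, and eBayes with trend and robust options.

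Named genes were the 20 largest changes in each direction that did not overlap between groups and kept the call without replicate 2, the 10 largest with both means at least log2 8, up to 4 called members of each list, the measured cell type markers, the genes with the smallest p for a genotype difference, and the 10 largest replicate 2 deviations. Further list members and the 4 unnamed probe sets were named after their values were seen. The comparison, the gene lists and the tests were chosen with earlier results of these data known. The lists by gene symbol and the log2 4 limit for bounds were added after values had been seen. The results of 1 gene list are not reported here.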

Additional observations from a re-analysis of the deposited data

How the results depend on the processing

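With the replicate numbers as a block 4891 probe sets were called instead of 4485. With wild-type arrays alone there were 5096, with trend and robust options 4547, and with a mean of at least log2 5 there were 4232 of 12920. Omission of a pair gave 2890 (replicate 1), 2435 (replicate 2) and 2320 (replicate 3), alternatives of which the first and last were chosen after seeing the data. Calls higher at the base were then 1336, 1039 and 1031, and calls lower 1554, 1396 and 1289. Omission of 1 array gave 3122 to 3668 calls, 1438 to 1764 of them higher (fewest without base replicate 2) and 1670 to 1911 lower. Of 179 called named genes, none reversed in any of the 14 settings and 63 lost the call in at least 1, 54 of them without replicate 2, 36 without replicate 1, 50 without replicate 3 and 3 with the block (CLE41, AT2G31790 and CHX16). Low-oxygen genes called higher numbered 10 and anthocyanin and flavonoid genes 7 with the block. Plastid photosynthesis genes called lower numbered 7 to 19 with arrays or pairs left out and 24 with wild-type arrays alone. CYP71B genes called lower numbered 3 with a mean of at least log2 5. Dehydration genes called higher numbered 2 with the block and 1 without replicate 2, and 1 was called lower without replicate 2 and without base replicate 2. The genotype difference had 5 calls with the block, 7 with median centring, 7 with trend and robust options, 0 with a mean of at least log2 5 and 0 to 3 with arrays or pairs left out. Dim probe sets were called less often, 3.26% under a mean of log2 4 against 38.9% from log2 10. The causes of these shifts were not tested, beyond the smaller number of arrays or probe sets.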
